A study of Mus musculus with 12 samples.

Results

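Minoxidil is known to act on ATP-sensitive potassium (KATP) channels after a sulfotransferase has turned it into minoxidil sulfate. The RNA of 4 channel genes, Kcnj8, Kcnj11, Abcc8 and Abcc9, and of the sulfotransferase gene Sult1a1 was followed in mouse back skin treated with minoxidil (MXD) or with a cell extract of the cactus Notocactus ottonis (N-CE). Probes were taken by gene name in the array files, which gave 5 genes read by 9 probes, among 27373 gene names and 41174 probes. The mice were male C57BL/6 (C57BL/6J in the sample labels), 8 weeks old, shaved on the back and given 200 µL per day of MXD at 3%, N-CE at 10% or the vehicle control (VC), a mixture of propylene glycol, ethanol and water. The controls were shaved too, so no group shows unshaved skin. Skin was taken after 1, 2 and 3 weeks (1W, 2W and 3W), and the RNA of 6 mice was pooled per group. A treated pool and the same week's VC pool were set against each other on 2 Agilent arrays that differed in which pool carried the Cy5 dye, so 12 arrays gave 6 comparisons of 1 pool with 1 pool.

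A KATP channel is built from a pore, which lets potassium out of the cell, and a sulfonylurea receptor, which senses nucleotides and binds the drugs that open or close the channel. Kcnj8 and Kcnj11 encode the pore subunits Kir6.1 and Kir6.2, and Abcc9 and Abcc8 encode the receptors SUR2 and SUR1. Kir6.1 with SUR2B is known from vascular smooth muscle and pericytes, Kir6.2 with SUR2A from heart and skeletal muscle, and Kir6.2 with SUR1 from pancreatic beta cells and neurons. Sulfotransferases of the SULT1A family move a sulfate group onto phenols and onto minoxidil, and minoxidil sulfate opens channels that hold SUR2.

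In MXD skin at 2W, 4 of the 5 genes fell: Kcnj8, Abcc9, Kcnj11 and Sult1a1 were at 33.5%, 42.9%, 40.3% and 45.3% of the VC level by their brightest probe. At 1W Kcnj8 and Kcnj11 fell and Abcc9 and Sult1a1 were not called, and at 3W none of the 5 was called. None was called in N-CE skin in any week. Over all genes by their brightest probe, 1.26%, 10.0% and 0.287% were called down at 1W, 2W and 3W of MXD. With N-CE these shares were 2.78%, 0.0752% and 0.214%. The dimmer Kcnj8 probe was not called at 2W of MXD, as its arrays went in opposite directions. The call of Kcnj11 at 1W was lost with another background correction. Abcc8 was near background throughout. A probe was called when the P of the array software was under 0.01 on both arrays in one direction and the mean fold was above 1.5 or below 0.75. This P describes the spot and not the mice, and the SD given with a fold is over the 2 arrays of a dye swap, so it holds measurement error only.

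Of the 9 probes, 7 were well above background in all 24 channels of the 12 arrays by the software's own flag. These were both Kcnj8 probes, the 3 Abcc9 probes and the single probes of Kcnj11 and Sult1a1. The Abcc8 probe A_51_P296995 passed in 23 channels, failing in the VC channel of 1 array at 3W, and the Abcc8 probe A_52_P218188 passed in 0 of 24. No fold is given for A_52_P218188, as neither group had a measured level. Of the 5 endocrine pancreas markers on the array, a tissue in which SUR1 is known, Ins1, Gcg and Pdx1 were not well above background in any pool, Slc2a2 was above it in every pool, and Ins2 in VC and MXD at 2W only.

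The probes are 60 bases long, and their positions below are those of the array files on the mouse build mm9, all on the minus strand. The Kcnj8 probes lie at chr6:142514004-142514063 (A_51_P312795) and chr6:142513487-142513546 (A_52_P225898). The Abcc9 probes lie at chr6:142537737-142537796 (A_51_P328850), chr6:142538001-142538060 (A_51_P328857) and chr6:142538081-142538140 (A_52_P616224). All 3 carry the accessions of the same 4 RefSeq transcripts. Whether each probe reads both the SUR2A and the SUR2B form was not resolved. Kcnj11 was read at chr7:53353119-53353178 (A_52_P402705), and Sult1a1 at chr7:133816605-133816664 (A_51_P321341). For the Abcc8 probes the files list only 9 and 24 positions that start at chr7:53359893. The nearest probes of Kcnj8 and Abcc9 were 23.7 kb apart on chromosome 6 and those of Kcnj11 and Abcc8 6.7 kb apart on chromosome 7, so each pore gene was beside a receptor gene. Exons and untranslated regions were not analysed here. The first 30 bases of the probes that carry the results are printed as the array files list them, with no base marked, because both Kcnj8 probes read 1 gene and disagreed on 1 array:
Kcnj8 A_51_P312795: actgtgtcctgatgactgagagacaatccg
Kcnj8 A_52_P225898: cacgggtcatcatgaatatgttcaaatcta
Abcc9 A_51_P328850: tacttgggcaaatttcagtgataggcattg
Kcnj11 A_52_P402705: agaaaaagaaatattgggaagttcagcctg
Sult1a1 A_51_P321341: aaatatgagtggatatggctatactgggaa

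Kcnj8, the pore subunit of the vascular KATP channel, had the lowest fold of the 5 genes at 2W of MXD. With its brighter probe A_51_P312795, the log2 fold of MXD over VC at 1W was -0.69 on the array with MXD in Cy5 and -0.62 on the array with MXD in Cy3. At 2W the arrays gave -1.66 and -1.49, and at 3W -0.42 and -0.30. All 6 values were below 0, the 2W values lay apart from those of the other weeks, and 1W and 3W did not overlap. The mean log2 fold was -0.65 ± 0.05 (SD, n = 2 arrays) at 1W and -1.58 ± 0.12 at 2W, both called, and -0.36 ± 0.09 at 3W, which was not called. The fold at 2W was lower than that of all but 0.5% of the 26589 probes well above background in both groups in that comparison.

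The dimmer Kcnj8 probe A_52_P225898 gave nearly the same values at 1W, with -0.68 and -0.66, and was called. At 2W its arrays gave -1.66 and 0.96, each with a P under 0.01 in opposite directions, so it was not called. On the second of these arrays its processed signal was 418 in MXD and 215 in VC, against 114 and 360 on the first. The brighter probe had an SD of 0.12 over the same arrays. At 3W the dimmer probe gave -0.27 and -0.30.

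In N-CE skin the brighter Kcnj8 probe gave 0.25 and 0.20 at 1W, -0.37 and -0.11 at 2W, then -0.27 and -0.18 at 3W. Every array at 1W was above 0 and every array at 2W and 3W below it, and the mean fold was called in no week.

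**Figure D1:**
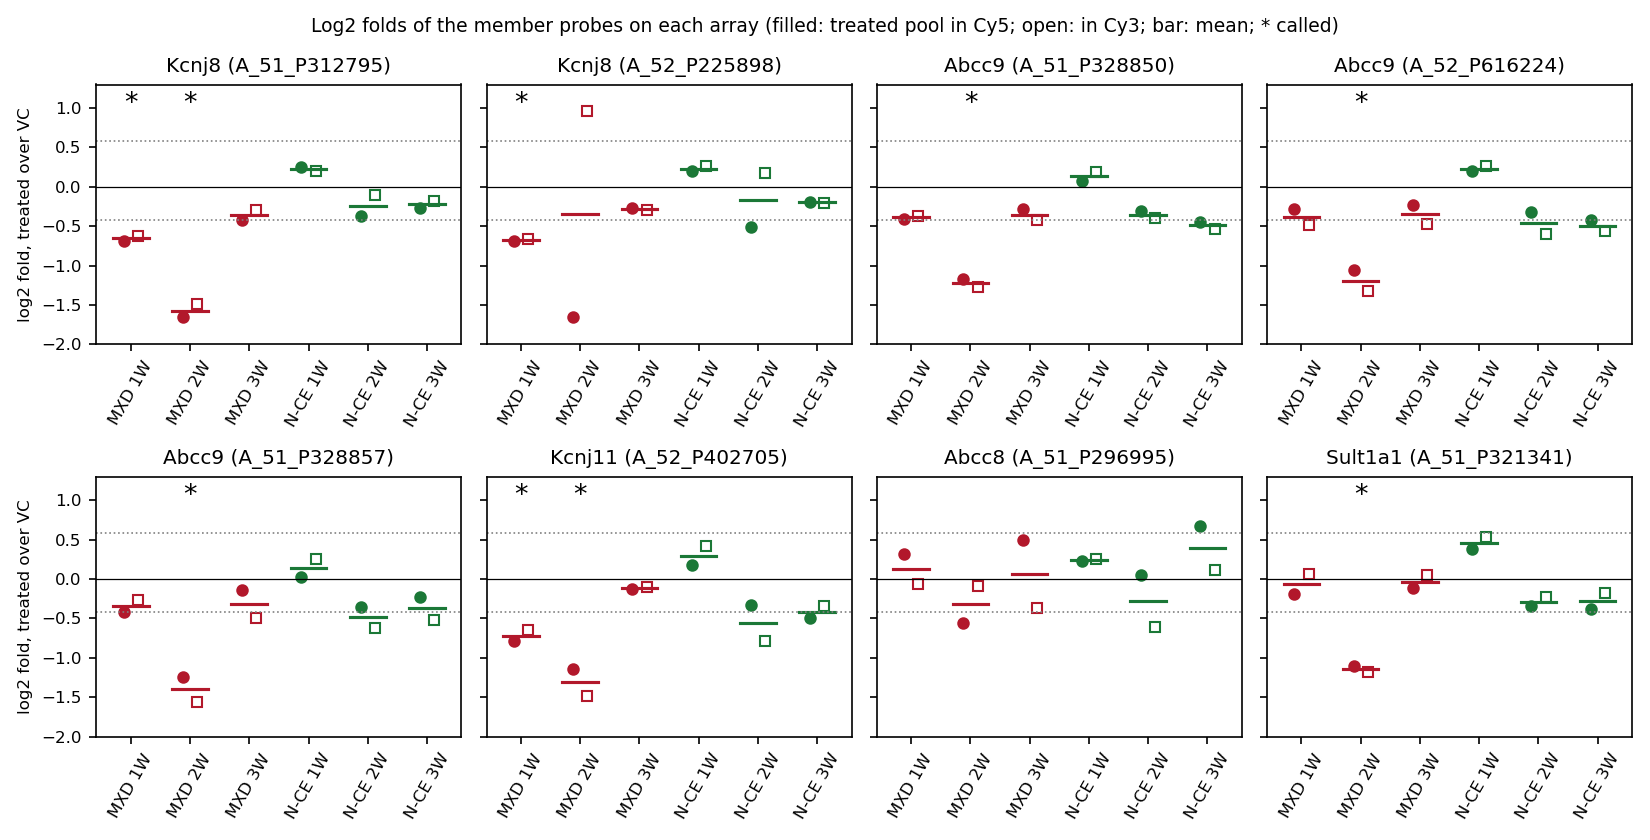
Log2 fold of treated over VC on each array for the 8 probes with a measured level, by comparison on the x axis (MXD in red, N-CE in green). Filled circles are arrays with the treated pool in Cy5, open squares arrays with it in Cy3, bars their mean, dotted lines the fold limits of 1.5 and 0.75, and asterisks the called probes. MXD 2W holds the lowest mean of every probe of Kcnj8 but A_52_P225898, and of every probe of Abcc9, Kcnj11 and Sult1a1.

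Abcc9, the receptor that pairs with Kir6.1 in vessels and with Kir6.2 in muscle, fell at 2W of MXD by all 3 probes. The brightest, A_51_P328850, gave -0.40 and -0.37 at 1W, -1.17 and -1.27 at 2W, then -0.28 and -0.43 at 3W. The mean log2 folds were -0.39 ± 0.02, -1.22 ± 0.07 and -0.36 ± 0.10 (SD, n = 2 arrays), and the middle one was called. The other 2 probes, A_52_P616224 and A_51_P328857, had means of -1.19 ± 0.19 and -1.40 ± 0.23 at 2W, and their means at 1W and 3W lay from -0.38 to -0.31. At 1W the fold of A_51_P328850 was 0.765, just outside the limit of 0.75, and that of A_51_P328857 was 0.788.

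In N-CE skin A_51_P328850 gave 0.08 and 0.19 at 1W, -0.31 and -0.40 at 2W, then -0.44 and -0.53 at 3W. The mean folds at 3W were 0.713 for this probe and 0.711 for A_52_P616224, which are below 0.75, but P was not under 0.01 on both arrays and neither was called. The VC pool is the same on the MXD and the N-CE arrays of a week, and the VC level of A_51_P328850 differed by 0.31 between those array pairs at 3W. That is a difference of 1 RNA from itself between arrays, in the level of single channels. The mean log2 fold of -0.49 ± 0.06 for N-CE was read within arrays, so the 2 are not like measures.

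Kcnj8 and Abcc9 fell together at 2W and are neighbours, so the 250 bases before their starts are shown, from RefSeq on GRCm38.p6, both on the minus strand. They lie at chr6:142571615-142571864 for Kcnj8 and chr6:142702275-142702524 for Abcc9. Capitals mark matches on either strand to the E-box, spelled CANNTG, to the GC box, spelled GGGCGG, and to the CArG box of smooth muscle genes, and no matches overlapped:
Kcnj8: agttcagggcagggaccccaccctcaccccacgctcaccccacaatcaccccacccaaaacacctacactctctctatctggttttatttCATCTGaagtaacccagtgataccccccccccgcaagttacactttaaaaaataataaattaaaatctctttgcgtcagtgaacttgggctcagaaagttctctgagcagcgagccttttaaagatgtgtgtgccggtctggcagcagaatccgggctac
Abcc9: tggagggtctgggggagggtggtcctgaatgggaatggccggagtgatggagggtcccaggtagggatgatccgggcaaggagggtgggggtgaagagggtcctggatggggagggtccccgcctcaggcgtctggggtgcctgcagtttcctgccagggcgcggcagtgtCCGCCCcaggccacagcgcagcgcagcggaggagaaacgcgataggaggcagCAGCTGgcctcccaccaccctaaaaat
Each holds 1 E-box match, which 66.2% of the 32851 windows of this length in the table also hold. Abcc9 has 1 GC box match, found in 32.7% of windows, and Kcnj8 has none. Neither holds a match to the CArG box, which 1.47% of windows hold. The G and C content was 49.2% before Kcnj8 and 66.8% before Abcc9, against a median of 52.4% over all windows. These are matches of letters and were tested for nothing.

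Kcnj11, the pore subunit of muscle and beta cell KATP channels, fell at 1W and 2W of MXD. Its probe A_52_P402705 gave -0.79 and -0.64 at 1W, -1.14 and -1.48 at 2W, then -0.12 and -0.09 at 3W. The means were -0.72 ± 0.10 and -1.31 ± 0.24 (SD, n = 2 arrays), both called, and -0.11 ± 0.02 at 3W, so the first 2 weeks did not overlap the last. This probe is dim, and with another background correction (normexp followed by loess) its log2 fold was -0.41 at 1W, which was no longer called, and -0.72 at 2W, which was. The N-CE arrays gave 0.18 and 0.42 at 1W, then -0.33 and -0.78 for 2W, and finally -0.49 and -0.34. The mean fold of 0.680 at 2W was past the limit of 0.75, but the probe was not called.

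Abcc8, the receptor of beta cell and neuronal channels, was measured by A_51_P296995 just above background. The arrays of MXD gave 0.31 and -0.06 at 1W, -0.56 and -0.08 at 2W, then 0.50 and -0.37 at 3W. The sign differed between arrays at 1W and 3W, and the means of 0.13, -0.32 and 0.07 were smaller than their SDs of 0.26, 0.34 and 0.61. With N-CE the means were 0.24 ± 0.02, -0.28 ± 0.46 and 0.39 ± 0.40. Abcc8 was called in none of the 6 comparisons.

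Sult1a1, the sulfotransferase, was not called at 1W of MXD, where Kcnj8 and Kcnj11 were called down. The arrays of MXD gave -0.19 and 0.07 at 1W, -1.11 and -1.18 at 2W, then -0.11 and 0.05 at 3W. The values at 1W and 3W lay on both sides of 0 and overlapped, and both 2W values were far below them. The mean at 2W was -1.14 ± 0.05 (SD, n = 2 arrays), a fold of 0.453 that was called, and normexp gave -1.14 as well. With N-CE the arrays gave 0.38 and 0.54 at 1W, -0.34 and -0.23 at 2W, then -0.37 and -0.17 at 3W. The mean fold of 1.37 at 1W was the highest of any member in any comparison and was under the limit of 1.5.

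In counts, 3 of the 9 member probes were called down at 1W of MXD and 0 up, while 0.765% of the 41153 probes tested were called down and 0.685% up. At 2W 6 of 9 were called down and 0 up, against 5.82% of 41152 called down and 4.04% called up. At 3W of MXD, 0 of 9 were called, where 0.304% of all probes were called in either direction. With N-CE 0 of 9 were called at 1W (1.78% of all probes), at 2W (0.119%) and at 3W (0.290%). Over the 8 member probes above background in both groups, the median log2 fold was -0.38, -1.21 and -0.30 in the 3 MXD comparisons and 0.23, -0.32 and -0.32 in those of N-CE, beside medians over all such probes that lay between -0.01 and 0.05. Several of these probes read the same gene, so they are no replicates of each other.

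No test over samples can be made within a week, because each group was 1 pool. Across weeks, limma's moderated test of the 3 weekly log2 folds called 0 of 41068 probes for MXD, 0 of 40895 for N-CE and 0 of 40820 for their difference at an adjusted p under 0.05 (percent called 0 in each), with 3098, 1490 and 2021 probes at an unadjusted p under 0.05. For MXD the brighter Kcnj8 probe had a mean of -0.86 with a standard error of 0.31 and a limma adjusted p of 0.63. The dimmer Kcnj8 probe, with a mean of -0.44 and a standard error of 0.11, was the 1 member probe of this fit with an unadjusted limma p under 0.05 (0.031, adjusted 0.63). For MXD with normexp and loess there were 6 such member probes of 9, beside 3493 of all 41068 probes. Among probes above background throughout there were 6 of 8, beside 2457 of 23240. With both treatments in 1 fit and week as a random block there were 5 of 9, beside 4202 of 40820. Several member probes read the same gene, and no member had an adjusted limma p under 0.05 in these fits. The mean of the dimmer Kcnj8 probe rests at 2W on the arrays that disagreed. Abcc9 and Kcnj11 had means between -0.64 and -0.71 with the same adjusted p, and Sult1a1 a mean of -0.41 with an adjusted p of 0.68. For MXD minus N-CE the brighter Kcnj8 probe had a mean of -0.78 and a 95% interval from -1.71 to 0.15 (limma adjusted p = 0.75). The interval of Sult1a1 ran from -1.24 to 0.49, so these data resolved neither a difference nor its absence.

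MXD and N-CE were set side by side within each week, against the same VC pool. At 1W the brighter Kcnj8 probe was at -0.65 with MXD and 0.22 with N-CE, Abcc9 (A_51_P328850) at -0.39 and 0.13, Kcnj11 at -0.72 and 0.30, and Sult1a1 at -0.06 and 0.46. At 2W the values were -1.58 and -0.24 for Kcnj8, -1.22 and -0.36 for Abcc9, -1.31 and -0.56 for Kcnj11, and -1.14 and -0.29 for Sult1a1. The arrays of the treatments did not overlap for any of these 4 probes in either week, which was also true of 55.2% of 25133 probes at 1W and 45.8% of 25779 in the following week. The log2 folds at 3W were -0.36 and -0.22, -0.36 and -0.49, -0.11 and -0.41, and -0.03 and -0.27 in the same order. The lower treatment at 3W was MXD for Kcnj8 and N-CE for Abcc9, Kcnj11 and Sult1a1.

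Levels were also read in each pool as log2 single-channel values after normexp, loess and scaling between arrays, with 4 channels for a VC pool and 2 for a treated pool. The weeks lie on separate slides, so a difference between weeks cannot be told apart from one between slides. For the brighter Kcnj8 probe N-CE 1W was highest at 10.93 ± 0.01, then VC 1W at 10.79 ± 0.05, VC 2W at 10.56 ± 0.22 and VC 3W at 10.48 ± 0.03. N-CE 3W (10.26 ± 0.10), N-CE 2W (10.24 ± 0.49), MXD 1W (10.20 ± 0.11) and MXD 3W (10.13 ± 0.12) followed, and MXD 2W was last at 9.13 ± 0.08. VC 2W and VC 3W overlapped, as did each neighbouring pair from N-CE 3W to MXD 3W, while MXD 2W lay below every other channel.

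For Abcc9 (A_51_P328850) the order began with N-CE 1W at 10.10 ± 0.01 and VC 1W at 10.00 ± 0.05 and ended with N-CE 3W at 8.73 ± 0.12 and MXD 2W at 8.63 ± 0.09. The last 2 pools overlapped, and so did each neighbouring pair from MXD 1W (9.61 ± 0.01) through VC 2W (9.60 ± 0.20), VC 3W (9.32 ± 0.19) and MXD 3W (9.15 ± 0.01) to N-CE 2W (9.14 ± 0.21). For Kcnj11 the channels of neighbouring pools overlapped from N-CE 1W (7.58 ± 0.01) down through VC 1W (7.51 ± 0.17), VC 2W (7.45 ± 0.29), MXD 1W (7.21 ± 0.07) and MXD 3W (7.17 ± 0.01) to VC 3W (7.13 ± 0.07). N-CE 2W (6.99 ± 0.07) lay apart, and MXD 2W (6.83 ± 0.02) and N-CE 3W (6.81 ± 0.06) overlapped at the bottom. Sult1a1 ran from N-CE 1W at 12.17 ± 0.05, apart from VC 1W (11.78 ± 0.10) and MXD 1W (11.75 ± 0.05), which overlapped, to MXD 2W at 10.25 ± 0.09, apart from N-CE 3W at 10.71 ± 0.12. Between them VC 2W (11.31 ± 0.18), MXD 3W (11.07 ± 0.02), VC 3W (11.05 ± 0.10), N-CE 2W (10.94 ± 0.33) and N-CE 3W overlapped from neighbour to neighbour. For Abcc8 (A_51_P296995) every pool lay between 6.41 and 6.91, and only N-CE 2W, the lowest, was apart from its neighbour.

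In the VC pools the mean level of Sult1a1 was 11.78, 11.31 and 11.05 at 1W, 2W and 3W, that of Abcc9 10.00, 9.60 and 9.32, and that of Kcnj8 10.79, 10.56 and 10.48. All were highest at 1W.

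**Figure D2:**
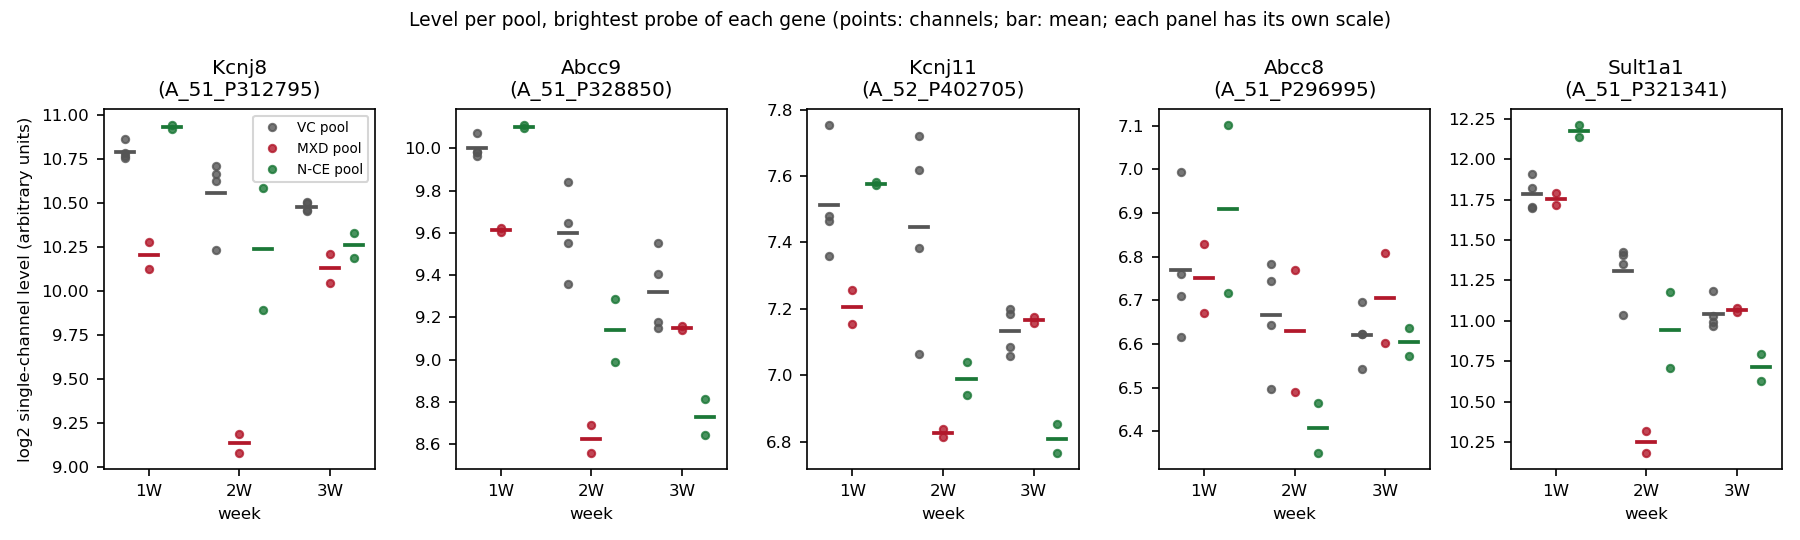
Log2 single-channel level in arbitrary units (y axis, 1 scale per panel) of the brightest probe of each gene by week (x axis). Points are channels, 4 for a VC pool (grey) and 2 for a MXD (red) or N-CE (green) pool, and bars are means. MXD 2W is the lowest pool of Kcnj8, Abcc9 and Sult1a1, and N-CE 1W is the highest pool of all 5 genes.

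The skin is a mixture of cells, and in such RNA fewer cells of a type and less RNA per cell cannot be told apart. Of 10 epidermal and dermal genes, which mark the labelled tissue, 10 were well above background at 2W of MXD and its VC. By median, skeletal muscle genes lay below 0 in all MXD comparisons, as Kcnj8, Abcc9 and Kcnj11 did. So did other lists described below, among them mural cell (-0.11 at 3W), smooth muscle (-0.002) and adipocyte (-0.10) markers. At 1W of N-CE the skeletal muscle median was -0.08, while that of the 8 member probes was 0.23. Of 10 muscle markers, 7 of 9 measured were called down at 1W of MXD, 10 of 10 at 2W and 2 of 10 at 3W, and none was called up. Their median log2 fold was -0.79, -1.46 and -0.42 with MXD and -0.08, -0.47 and -0.38 with N-CE, where 0, 1 and 0 were called down. Titin (Ttn, -1.80), the fast myosin Myh1 (-1.55) and the light chain Mylpf (-1.50) changed most at 2W of MXD. The log2 of the summed level of the 10 genes ranged from 18.19 to 18.58 in the VC channels at 2W and from 16.73 to 17.41 in those of MXD, and all 10 were above background in every pool. Kcnj11 and Abcc9 are known in this tissue, and the part of muscle RNA in their folds was not tested.

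Mural cells, the pericytes and smooth muscle of vessels, are the other known site of Kcnj8 and Abcc9. Of 8 mural markers measured at 2W of MXD 3 were called down, Vtn (-1.12), Higd1b (-0.96) and Pdgfrb (-0.71), and 0 up, with a list median of -0.41. Cox4i2 was not above background in any pool. At 1W 0 of 8 were called and the median was -0.04, where the brighter Kcnj8 probe was at -0.65. The summed level of the mural list was 13.96 to 13.98 in MXD at 2W, inside the VC range of 13.72 to 14.05. As a sum of intensities it is weighted to the brightest genes, and falls of single markers can be hidden in it. The summed level of endothelial markers at 2W was 13.16 to 13.20 in MXD and 13.53 to 13.82 in VC. That of adipocyte markers was 16.23 to 16.31 in MXD and 16.79 to 17.00 in VC. For smooth muscle markers it was 14.57 to 14.65 in MXD, inside the VC range of 14.31 to 14.70. Smooth muscle markers had 4 of 8 called down at 2W (median -0.72), led by Des (-1.46), Lmod1 (-1.18) and Myh11 (-0.74). Desmin, which skeletal muscle also expresses, was the 1 called at 1W. At 2W Cnn1 (-0.71) was called down too. Acta2, Tagln and Smtn of the same list were at 0.18, 0.35 and 0.55 at 2W and were not called. Endothelial markers had 4 of 10 called down at 2W (median -0.49), led by Cldn5 (-0.93), Tek (-0.78) and Emcn (-0.78). Adipocyte markers had 5 of 8 called down at 2W (median -0.68), led by Plin1 (-1.08), Retn (-1.04) and Cfd (-0.97). The adipocyte medians had the sign of the members' medians in every comparison. So did the medians of the other inward rectifier genes and of the genes of vascular tone, which are described below. The adipocyte medians were -0.31, -0.68 and -0.10 with MXD, and 0.31, -0.38 and -0.22 with N-CE. At 1W of N-CE the medians of endothelium, mural cells and smooth muscle were 0.29, 0.17 and 0.09. Over all genes by their brightest probe, 10.0% were called down and 6.21% up at 2W of MXD, and 1.26% and 1.25% at 1W. In the other comparisons these shares were 0.287% and 0.293% (MXD 3W), 2.78% and 0.543% (N-CE 1W), 0.0752% and 0.118% (N-CE 2W), and 0.214% and 0.209% (N-CE 3W). The part of these cells in the folds of the members was not tested.

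**Figure D3:**
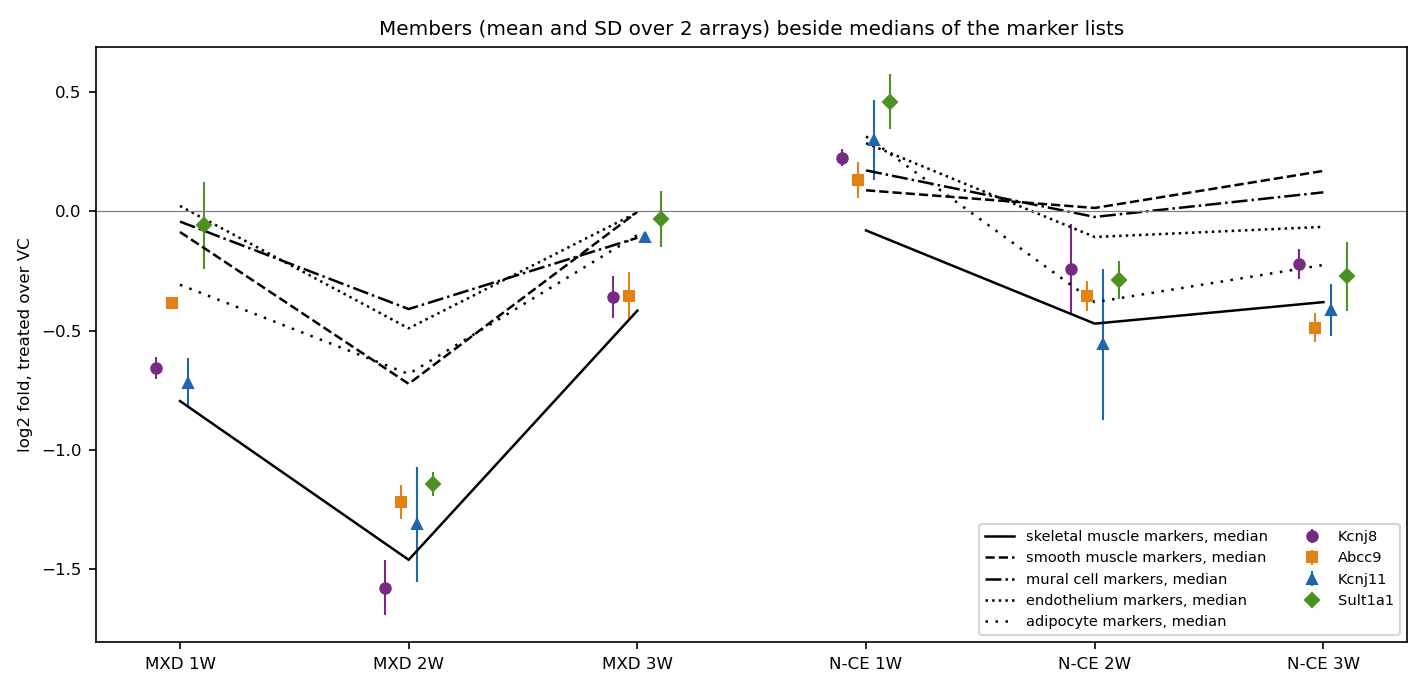
Mean log2 fold of treated over VC (y axis) with the SD over 2 arrays for the brightest probe of Kcnj8, Abcc9, Kcnj11 and Sult1a1 in the 6 comparisons (x axis), beside lines for the median log2 fold of 5 marker lists. At 2W of MXD the 4 members lie between -1.14 and -1.58 and the skeletal muscle median at -1.46, with the other 4 lists between -0.41 and -0.72.

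The hair keratins, which include inner root sheath keratins as well as those of the shaft, and the melanocyte genes differed from the members in direction. All 11 hair keratins measured were called up at 2W of MXD (median 1.31) and 4 at 1W, while with N-CE at 1W all 11 were called down, Krt71 (-2.82), Krt33a (-2.80) and Krt27 (-2.80) most. All 6 melanocyte genes were called up at 2W of MXD, although Tyr was at 0.37 with normexp, and all 5 measured were called down at 1W of N-CE, with Oca2 at -3.04, Tyrp1 at -2.02 and Slc45a2 at -2.01. With normexp Oca2 was at -1.51 and Slc45a2 at -1.28. In the dermal papilla list Wif1, an inhibitor of Wnt signalling, was called up at 2W of MXD and down at 1W of N-CE (-1.24). The neuronal tubulin gene Tubb3 was called up at 2W of MXD (1.01). In the epidermal and dermal list 5 of 10 were called down at 2W, with Krt10 (-1.43), Krt1 (-1.30) and the cornified envelope gene Lor (-1.17) lowest, and 1 was called up, Ivl (1.00), which also encodes a protein of the cornified envelope.

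Of the other inward rectifier genes, which share the pore structure of Kir6, 5 of 12 on the array were measured at 2W of MXD, and 3 were called down and 0 up. These were Kcnj16 (-1.51), Kcnj12 (-1.18) and Kcnj2 (-0.83), of which Kcnj2 and Kcnj12 carry the classical inward rectifier current of muscle. With normexp Kcnj16 was at -0.97, and Kcnj2 at -0.37, which is inside the fold limit. None of the list was called in any other comparison. Of the other ABCC transporters, the family of the SUR receptors, 1 of 4 measured was called down at 2W of MXD, the nucleotide and prostanoid exporter Abcc4 (-1.01). Among 6 regulators of KATP channels 3 were called down at 2W. These were Cav3 (-1.44), the caveolae protein of muscle, Cav1 (-1.01), another caveolae protein, and the calcineurin subunit Ppp3ca (-0.72). All 6 regulators were below 0 in that comparison, with a median of -0.59, and 0 were called elsewhere.

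Of the other cytosolic sulfotransferases 5 of 10 were measured at 2W of MXD. Sult1e1, which sulfates oestrogens, was called down (-0.94, and -0.61 with normexp) and Sult4a1, a brain form, was called up (0.78, but 0.53 with normexp, which is inside the fold limit). Sult1e1 was called up at 1W (0.67) and 3W (0.75) of MXD and at 1W of N-CE (0.66), where Sult1a1 was called in none. With normexp these 3 values of Sult1e1 were 0.48, 0.53 and 0.45, all inside the fold limit, so the calls up were lost. Of the 8 genes that make, carry or recycle the sulfate donor, 0 were called in any of the 6 comparisons, and the median at 2W of MXD was -0.05. The 2 synthases of the donor were at 0.07 (Papss1) and -0.35 (Papss2) at 2W.

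Among 16 genes linked to minoxidil in earlier work, such as growth factors, prostaglandin synthases, adenosine receptors and lysyl hydroxylases, 4 were called down and 2 up at 2W of MXD. Ptgs1, the constitutive cyclooxygenase, was at -1.74 and the adenosine receptor Adora3 at -1.24, and the Wnt effector Lef1 was called up at 2W of MXD (1.47) and down at 1W of N-CE (-1.92). With normexp Adora3 was at -0.35. The vascular growth factor Vegfa was at -0.49 and was not called. Of 11 genes of vascular tone measured 3 were called down at 2W, the cGMP-dependent kinase Prkg1 (-1.10), the guanylyl cyclase subunit Gucy1b3 (-0.98) and the endothelial nitric oxide synthase Nos3 (-0.67), and the endothelin receptor Ednrb (0.64) was called up.

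**Figure D4:**
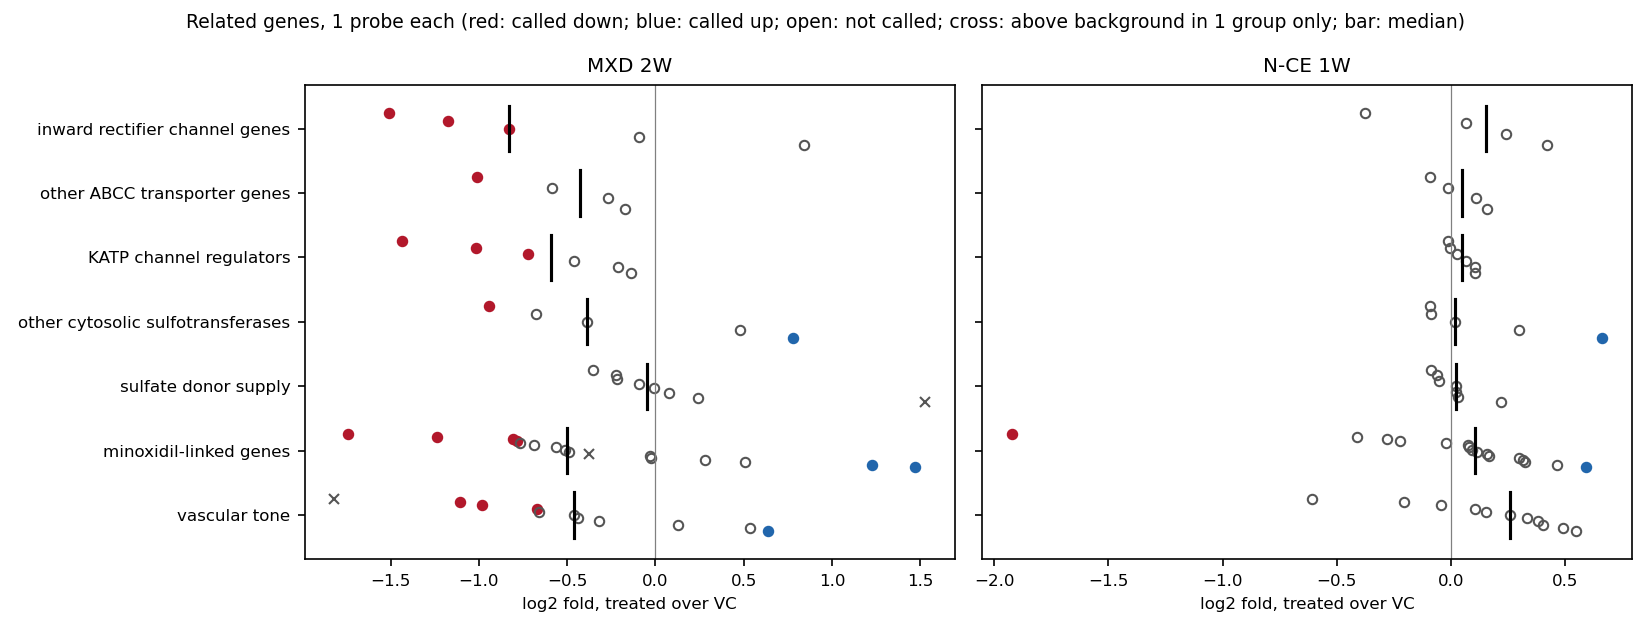
Log2 fold of treated over VC (x axis) for the genes of 7 related lists (y axis), 1 probe per gene, at 2W of MXD (left) and 1W of N-CE (right). Red points were called down, blue points up, open points were not called, crosses had a measured level in 1 group only, and bars are medians. At 2W of MXD the medians run from -0.05 for sulfate donor supply to -0.83 for the inward rectifiers.

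The genes whose 6 log2 folds followed a member most closely were taken from 15621 genes above background in both groups in all comparisons. With 6 values that share VC pools and arrays the coefficients are a description. For Kcnj8 they were a transcript listed by an Ensembl identifier, Asb10 (Pearson r = 0.9977, n = 6 comparisons) and Adssl1 (0.9976), the adenylosuccinate synthase of muscle. For Abcc9 they were Bnip3 (0.9997), a mitochondrial protein of the BCL2 family, and the unnamed genes 2310043M15Rik and 1700019D03Rik. For Kcnj11 they were the small GTPase Rras (0.9983), Lbx1 (0.9974), a homeobox factor of muscle precursors, and the mitochondrial nuclease Endog (0.9964). For Sult1a1 they were Abi3 (0.9996), Bhlhe22 (0.9986) and Ly6i (0.9983), and for Abcc8 Ptprz1, Dusp8 and Klhl9. Among the members Abcc9 and Sult1a1 had the highest coefficient with each other (0.983), and Kcnj8 with Abcc9 had 0.949.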

How the data were processed

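The microarray data of back skin were analysed, and the other measurements of the study were not analysed here. The authors deposited Agilent Feature Extraction output (version 12.0.3.1 per the file headers; the labels' processing notes give 11.0.1.1 and the study's methods an older version) for 12 arrays. It holds the signal intensity of each channel, raw and as processed by the software (background removed, dyes evened by LOWESS), the deposited log10 ratio of Cy5 over Cy3, and the deposited p-value of each spot. A deposited matrix of log10 ratios equals the ratio of processed intensities. Positions are on mm9.

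Ratios were turned to treated over VC, control spots and spots marked as outliers (143 to 355 per array) were left out, and spots of a probe were averaged. Folds are geometric means over the dye swap. Probes were called with P under 0.01 on both arrays in one direction and a fold above 1.5 or below 0.75. Between 57.0% and 65.0% of transcript spots in Cy3 and 61.3% to 69.6% in Cy5 were well above background, none was saturated, and 12 arrays of 9 pools limit the precision. The correlation of log2 folds between the arrays of a dye swap over probes above background ran from -0.20 (N-CE 2W) to 0.60 (MXD 2W). Each week's 4 arrays lie on 1 slide. Levels used normexp with an offset of 50, loess and Aquantile. The limma test over weeks took the 3 weeks as replicates, with p-values adjusted by Benjamini-Hochberg over all probes. Each gene of a list was read by its brightest probe, and genes above background in neither group were left out. Of each list up to 3 called genes with the largest change were named; other genes named were chosen after their values were seen. Members and lists were chosen with earlier results of these data known. The steps were tested on simulated data. Python 3.11.15, numpy 2.4.6, pandas 2.3.3, R 4.3.3 and limma 3.58.1 were used. Promoter sequences came from RefSeq (GRCm38.p6). Alternatives covered the P criterion, symmetric folds, normexp with loess, a filter on dim probes, matrix values, arithmetic means, outlier spots, single arrays, single weeks left out, week as a random block, scaling by the 75th percentile, and means over the probes of a gene.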

Additional observations from a re-analysis of the deposited data

Results flagged for a closer look

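At 1W both arrays of MXD were below 0 and both arrays of N-CE above 0 for 6 of the 8 member probes with a measured level. Of all 25133 probes measured in both comparisons at 1W, 14.7% did the same, 12.4% did the opposite, and the arrays of the treatments did not overlap in 55.2%. The difference of the log2 folds, MXD minus N-CE, was -0.88 and -0.90 for the Kcnj8 probes A_51_P312795 and A_52_P225898. It was -0.52, -0.61 and -0.48 for the Abcc9 probes A_51_P328850, A_52_P616224 and A_51_P328857, and -1.02 for Kcnj11. The differences at 1W were not tested, since each group was 1 pool. Across the 3 weeks limma gave an adjusted p of 0.75 for MXD minus N-CE of each of these probes. Of 27 sets of 4 VC channels (9 probes in 3 weeks), none had a channel far from the others by Dixon's limit.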

How the results depend on the processing

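The count of member probes called was 3 at 1W and 6 at 2W of MXD and 0 in the other comparisons. Without the P criterion it was 3 at 2W and 2 at 3W of N-CE, all down. With normexp and loess 2 of the 3 calls at 1W of MXD were made, as Kcnj11 was at -0.41. Read from 1 array alone, the count was 3 at 1W and 7 at 2W of MXD, from 0 to 3 at 2W of N-CE, and 0 in the other comparisons. In 2W of MXD the seventh was the Kcnj8 probe A_52_P225898, with -1.66 on one array and 0.96 on the other. The shares of all probes called without the P criterion or from 1 array are not given here. These looser counts of members therefore cannot be set against all probes, and nothing is read from them about N-CE. No other alternative moved a count. Of 240 alternative values of the members' folds, 7 changed sign, each from a single array and none of a called probe. normexp brought dim probes nearer to 0, with Abcc9 A_51_P328857 at -0.85 and Kcnj11 at -0.72 at 2W of MXD. The limma count was 0 for MXD, N-CE and their difference under every alternative, including each week left out. Scaling by the 75th percentile moved 28 of 54 level differences by more than the SD of the VC channels, by up to 0.61. Of 216 alternative list medians 44 moved by more than their SD. No pairing of mice was possible because all samples carry replicate number 1 and each group is 1 pool. MXD and N-CE were paired only by week, in the limma test of their difference. Pools of 6 mice give no spread between mice, and the weeks share neither slide nor VC pool.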
